A study of Mus musculus with 3 samples.

Results

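The genes described here encode the WNT, FGF, BMP and GDF proteins, most of them signals that one cell sends to another during development. They were chosen by symbol: Wnt, Fgf, Bmp or Gdf followed by a number and an optional letter, among protein-coding genes of the GENCODE M21 basic annotation, without receptors. The rule found 63 of 21851 genes with a protein-coding start: 19 WNT, 22 FGF, 12 BMP and 10 GDF genes. Read literally, it also took in 6 genes that encode no secreted ligand. These are Bmp1, a protease that trims procollagens and cleaves the BMP antagonist chordin, Bmp2k, a kinase, and Fgf11 to Fgf14, whose products stay inside the cell and bind sodium channels.

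The chromatin was that of MEL cells, an immortalized mouse erythroleukemia line blocked at an early stage of red cell formation, with no treatment or genotype named in the labels. In DNase-seq, DNase I cuts DNA where nucleosomes leave it accessible, and clusters of cuts are called as peaks. The 3 libraries came from 2 biological replicates of this 1 condition. The replicate 1 list was called on the merged reads of 2 libraries and held 281600 peaks, and the replicate 2 list was called on 1 library and held 89046. Every peak was 150 bp wide and carried the authors' score, a whole number from 1 to 150, with medians of 73 (replicate 1) and 32 (replicate 2). What it counts was not stated in the sources used here. Scores are therefore read only within a list, and the read depth is unknown. Promoter peaks were found at 8 of 9 erythroid marker genes in replicate 1 and 7 of 9 in replicate 2, Epor (score 106), Klf1 (84), Gata1 (71) and Gfi1b (68) among them in replicate 2. Slc4a1 had none in either list. Of 10 marker genes of other tissues, Col1a1 and Alb had one in each list, with replicate 2 scores of 35 and 12.

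WNT proteins are lipid-modified ligands that bind Frizzled receptors with LRP co-receptors and keep β-catenin from being destroyed. Most FGF proteins bind receptor tyrosine kinases together with heparan sulphate, while the hormone FGFs travel in blood and need Klotho co-receptors. BMP and GDF ligands belong to the TGF-β family, and most of them bind paired serine/threonine kinase receptors and act through SMAD factors. In the blood lineage BMP4 is best known for its part in stress erythropoiesis, and GDF15 as a protein released by maturing erythroblasts. Many developmental genes have promoters rich in CpG dinucleotides, a base composition that in most genes goes with open chromatin.

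The DNA under the strongest promoter peaks of these genes is shown first, because it differs so much in CpG content. The 4 members with the highest replicate 2 promoter scores are given from the mm10 (GRCm38) reference, plus strand, with every CpG in capitals.
Fgf15, chr7:144895916-144896065: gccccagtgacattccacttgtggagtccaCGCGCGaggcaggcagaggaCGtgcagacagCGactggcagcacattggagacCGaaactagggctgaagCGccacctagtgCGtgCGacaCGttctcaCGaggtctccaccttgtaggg
Fgf11, chr11:69800976-69801125: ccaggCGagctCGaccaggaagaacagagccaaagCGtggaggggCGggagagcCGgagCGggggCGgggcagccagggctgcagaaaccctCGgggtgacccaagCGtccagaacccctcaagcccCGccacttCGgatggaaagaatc
Bmp2k, chr5:96997396-96997545: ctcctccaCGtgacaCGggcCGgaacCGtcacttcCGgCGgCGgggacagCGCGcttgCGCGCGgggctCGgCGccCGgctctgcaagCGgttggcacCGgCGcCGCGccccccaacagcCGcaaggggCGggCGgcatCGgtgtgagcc
Gdf3, chr6:122609456-122609605: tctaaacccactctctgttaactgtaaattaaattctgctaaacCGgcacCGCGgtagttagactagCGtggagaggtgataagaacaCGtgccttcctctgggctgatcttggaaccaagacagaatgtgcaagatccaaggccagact
The Bmp2k peak holds 24 CpGs in 150 bp, the Fgf15 and Fgf11 peaks 11 each, and the Gdf3 peak 5.

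These stand beside a pair of WNT promoters that had no peak in either list. The RefSeq promoter table (GRCm38.p6) matched 45 of the 63 members. The 250 bases before the start are given 5′ to 3′ in the direction of transcription, Wnt9a from the plus strand and Wnt3a from the minus strand, again with CpG in capitals. Both were chosen after their values were seen.
Wnt9a, chr11:59306680-59306929: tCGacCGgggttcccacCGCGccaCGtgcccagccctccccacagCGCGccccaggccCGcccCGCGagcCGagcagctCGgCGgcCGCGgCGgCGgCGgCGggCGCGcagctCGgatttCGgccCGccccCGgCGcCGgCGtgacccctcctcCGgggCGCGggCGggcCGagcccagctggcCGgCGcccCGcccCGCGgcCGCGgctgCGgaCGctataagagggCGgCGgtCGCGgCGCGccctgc
Wnt3a, chr11:59290752-59291001: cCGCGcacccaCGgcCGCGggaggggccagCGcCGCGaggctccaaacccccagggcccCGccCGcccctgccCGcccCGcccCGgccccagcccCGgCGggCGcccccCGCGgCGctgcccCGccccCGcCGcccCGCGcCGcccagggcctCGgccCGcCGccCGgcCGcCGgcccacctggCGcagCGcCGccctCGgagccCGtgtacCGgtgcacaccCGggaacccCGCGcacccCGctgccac
The Wnt9a stretch holds 48 CpGs and the Wnt3a stretch 41. Both are denser in CpG than the Fgf15, Fgf11 and Gdf3 sequences, which are shorter and lie further from their starts. Like windows are compared by observed over expected CpG within 500 bp of the 5′-most coding start. It was 0.997 for Wnt9a and 0.748 for Wnt3a, against 1.0 for Bmp2k, 0.654 for Fgf15, 0.462 for Fgf11 and 0.366 for Gdf3. The nearest replicate 2 peak lay 4017 bp from the Wnt9a start and 3059 bp from the Wnt3a start.

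Few of these genes had a promoter peak. A peak centred within 1000 bp of a protein-coding start was present at 23 of 63 members in the replicate 1 list (36.5%, against 58.3% of all protein-coding genes) and at 10 of 63 in the replicate 2 list (15.9%, against 49.4%). All 10 were also called in the replicate 1 list, and 49.4% of all genes were called in both. Another 13 (20.6%) were called in the replicate 1 list alone, against 8.87% of all genes. The remaining 40 had no promoter peak in either list, against 41.7% of all genes. With 1 list per biological replicate and no second condition, none of these differences could be tested, and the counts are descriptions. A gene with several coding starts was counted once, and distances are given from the nearest of its starts.

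**Figure D1:**
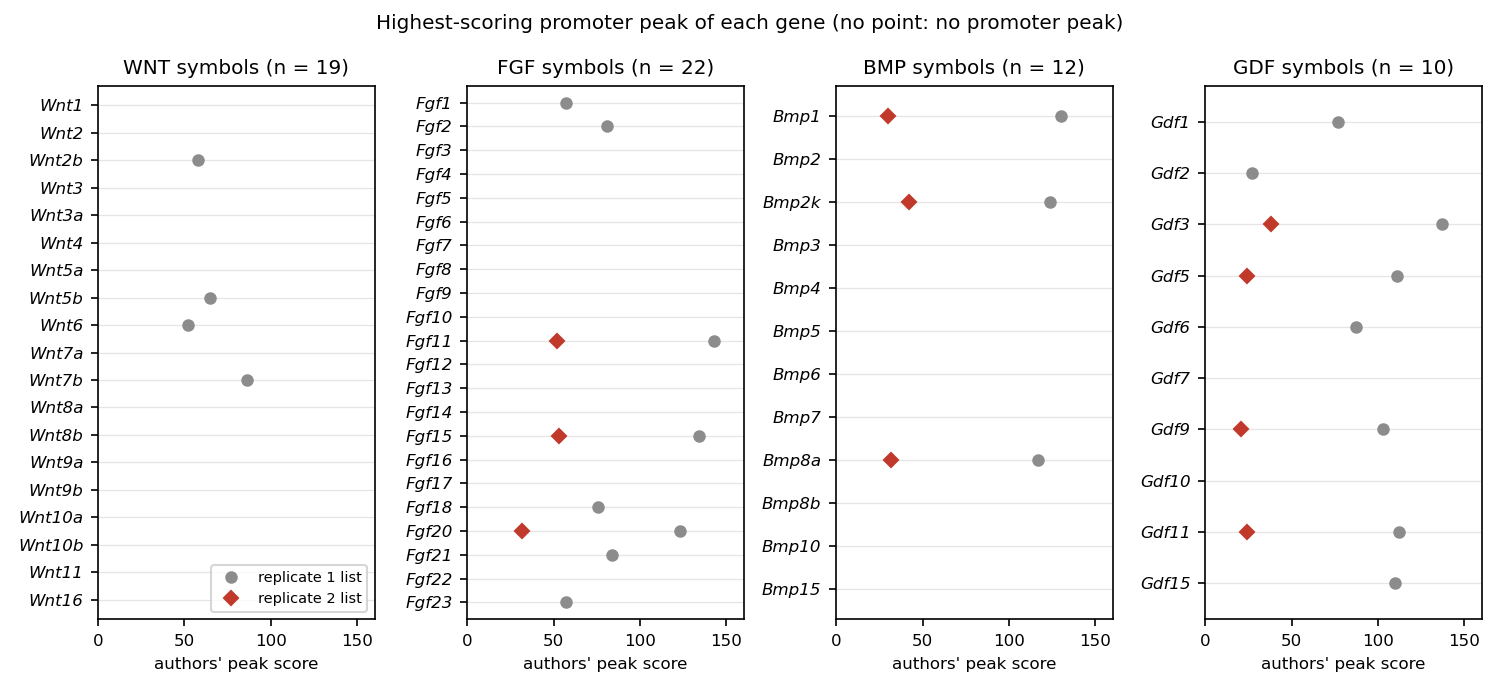
Authors' score of the highest-scoring promoter peak of each member (x axis) in the replicate 1 list (grey circles) and the replicate 2 list (red diamonds), by family. No WNT gene has a red point, the 10 red points lie between 21 and 53, and 40 genes have no point at all.

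The families differed in this count. Of 19 WNT genes, 4 had a promoter peak in replicate 1 and 0 in replicate 2. Of 22 FGF genes, 8 and 3 had one. The 12 BMP symbols had 3 in both lists, but only Bmp8a of the 10 BMP ligands was among them. GDF genes stood highest, with 8 of 10 in replicate 1 and 4 of 10 in replicate 2, against 58.3% and 49.4% of all genes. The replicate 1 counts depend on the length of that list. When it was limited to its 89046 highest-scoring peaks, as many as in replicate 2, the counts were 0 of 19 WNT, 3 of 22 FGF, 3 of 12 BMP and 5 of 10 GDF genes. Over all genes the share at that length was 50.7%, so the GDF count was near it. The promoter peaks of all 4 WNT genes were thus outside the top 89046, and with a window of 500 bp no WNT gene had one in the full list either. With that window 54.9% of all genes had a replicate 1 promoter peak.

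Within the FGF family the 3 hormones (Fgf15, Fgf21 and Fgf23) all had a promoter peak in replicate 1, and Fgf15 alone also had one in replicate 2. The 15 paracrine ligands had 4 and 1. Of the 4 intracellular members only Fgf11 had one, in both lists.

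Among the members with a promoter peak in both lists, Fgf15, which encodes the intestinal hormone that restrains bile acid synthesis, scored highest in replicate 2. Its peak scored 53 in replicate 2 and 134 in replicate 1, 540 bp upstream of the start, and replicate 1 had further peaks 120 bp upstream and 420 bp downstream that replicate 2 lacked. Fgf11 had a replicate 2 score of 52 at chr11:69800976-69801125, in an intron 665 bp past the start, and a replicate 1 score of 143. Fgf20, a ligand of the inner ear and of kidney progenitors, scored 32 and 123 at chr8:40307856-40308005. That site is shared ground, as the coding gene Micu3 starts 873 bp from Fgf20 on the opposite strand and the miRNA gene Mir7666 starts 2 bp from the peak centre, so the peak cannot be given to Fgf20 alone.

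The 3 BMP symbols with a promoter peak were Bmp2k, Bmp8a and Bmp1. Bmp2k scored 42 in replicate 2 and 124 in replicate 1, and its peak lay 218 bp upstream of the start and 107 bp from the start of the noncoding gene Gm9484. Bmp8a, a ligand known from the male germ line, had peaks with replicate 2 scores of 32 at chr4:123342896-123343045 and 24 nearby, and its highest replicate 1 score was 117. Bmp1 had 3 replicate 2 peaks around its start, the strongest scoring 30 at chr14:70520596-70520745, and 130 was its highest replicate 1 score. Bmp2, Bmp3, Bmp4, Bmp5, Bmp6, Bmp7, Bmp8b, Bmp10 and Bmp15 had no promoter peak in either list.

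Among GDF genes the strongest replicate 2 promoter score belonged to Gdf3, a ligand of the early embryo and of pluripotent cells. It had a peak scoring 38 in the intron, 556 bp past the start, and one scoring 33 in exonic sequence 156 bp past it, with replicate 1 scores of up to 137. Gdf11, which patterns the body axis, had 4 replicate 2 peaks with scores from 13 to 24, the strongest at chr10:128891876-128892025. Gdf5, a joint-forming ligand, scored 24 at chr2:155946236-155946385 and 111 in replicate 1. At 944 bp upstream, this peak is just inside the promoter window. Gdf9, an oocyte ligand, scored 21 at chr11:53433336-53433485 and 103 in replicate 1. A stronger peak at the annotated 5′ end of the Gdf9 gene, upstream of its protein-coding start, is described below with Uqcrq.

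The 13 members called in the replicate 1 list alone had lower replicate 1 scores. They were Gdf15 (110), Gdf6 (87), Wnt7b (86), Fgf21 (84), Fgf2 (81), Gdf1 (77), Fgf18 (76), Wnt5b (65), Wnt2b (58), Fgf1 (57), Fgf23 (57), Wnt6 (52) and Gdf2 (27). Their median of 76 lay under the median of 123.5 for the 10 members called in both lists, and over all genes the same medians were 70 and 141. Only Gdf15, at 110, reached into the range of the 10 members called in both lists, which ran from 103 to 143. With lists of equal length 11 members had a replicate 1 promoter peak and 1, a GDF gene, was called in that list alone, against 2.43% of all genes. In the replicate 2 list the median best promoter score of the 10 members was 32, against 63 over all genes with a promoter peak, and none of the 10 reached 63.

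Without a promoter peak in either list were 15 WNT genes (every one except Wnt2b, Wnt5b, Wnt6 and Wnt7b), 14 FGF genes (Fgf3 to Fgf10, Fgf12 to Fgf14, Fgf16, Fgf17 and Fgf22), the 9 BMP genes named above, and Gdf7 and Gdf10. In every member's promoter at least 91.4% of the 32-bp words occur once in the genome. Hotspots, the authors' wider accessible regions, overlapped the promoter windows of 24 and 11 members, adding Fgf7 in replicate 1 and Gdf6 in replicate 2. Hotspot overlap was not counted over all genes, so these counts have no background beside them.

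The contrast with other genes was wider among CpG-rich promoters. Genes were classed by observed over expected CpG within 500 bp of their 5′-most coding start, high at 0.6 or more and low under 0.4, while a promoter peak could lie at any coding start. Of 34 members in the high class, 12 had a promoter peak in replicate 1 and 6 in replicate 2, or 35.3% and 17.6%. Over all 10376 genes of that class the shares were 81.2% and 75.9%. When only peaks at the classed start itself were counted, the members numbered 11 and 6 (32.4% and 17.6%), and the shares over the class were 80.2% and 74.8%. None of the 13 WNT genes of the high class had a replicate 2 promoter peak. In replicate 1, Wnt2b and Wnt6 had one at the classed start, and Wnt5b had one only at another of its 4 starts.

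In the full replicate 1 list the order was reversed for genes of the low class, in part through weak peaks. Of 16 members in the low class, 8 had a promoter peak in replicate 1, against 29.9% of all genes of that class, and 3 had one in replicate 2 (18.8%, against 17.2%). The Fgf1 peak lay at another start than the classed one. At the classed start itself 7 of 16 had a replicate 1 peak (43.8%, against 26.1%) and 3 a replicate 2 peak (18.8%, against 13.9%). The 8 with a replicate 1 peak at any start included all 5 low-class GDF genes, Gdf2, Gdf3, Gdf5, Gdf9 and Gdf15, and the other 3 were Fgf1, Fgf21 and Fgf23. The peaks of Gdf2 (27), Fgf1 (57), Fgf23 (57) and Fgf21 (84) were outside the 89046 highest-scoring replicate 1 peaks. The share of low-class genes at that list length was not worked out. In the middle class 3 of 13 members had one in replicate 1 (58.6% of all genes of that class) and 1 of 13 in replicate 2 (48.6%).

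**Figure D2:**
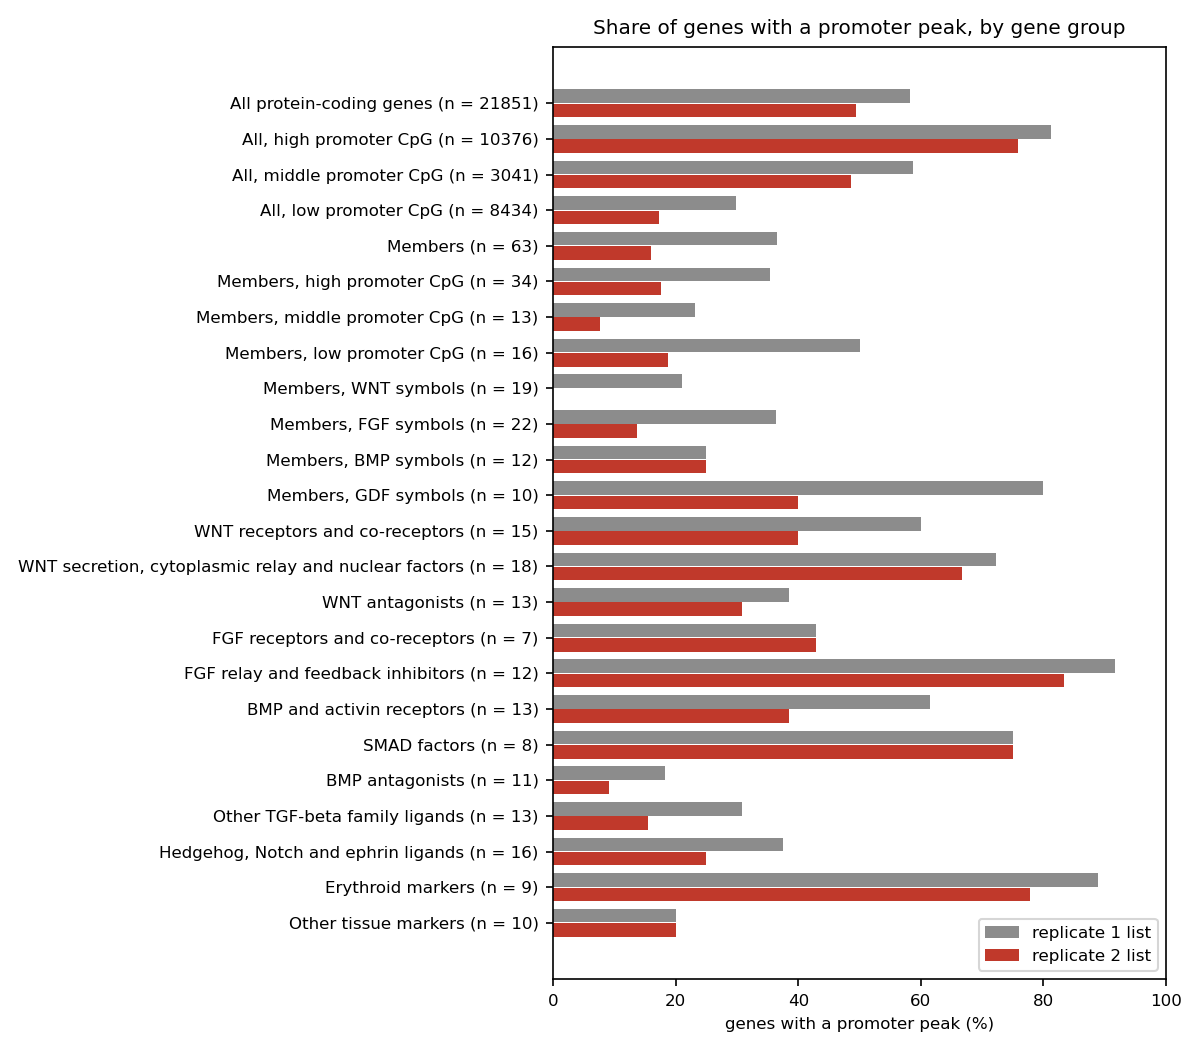
Percentage of genes with a promoter peak (x axis) in the replicate 1 list (grey) and the replicate 2 list (red), for all protein-coding genes, the members, their families and the genes of the same pathways. High-CpG members reach 35.3% and 17.6%, against 81.2% and 75.9% for all high-CpG genes.

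Starts without a peak often had one a few kilobases away, above all in the WNT and GDF families. Of the 19 WNT genes, 13 had a replicate 2 peak within 5 kb of a start, although none had one within 1 kb. Among all genes without a replicate 2 promoter peak 22.3% had a peak that close, and among those of the high-CpG class 27.4%. In the FGF family 5 of the 19 genes without a replicate 2 promoter peak had one within 5 kb. The corresponding count was 3 of 9 for BMP and 4 of 6 for GDF genes. Among genes without a replicate 2 promoter peak, the median distance from a start to the nearest replicate 2 peak was 3748 bp for WNT genes. It was 3401.5 bp for GDF, 13613 bp for BMP and 18203 bp for FGF genes. Over all such genes it was 16110 bp, and over those of the high-CpG class 11304 bp.

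The WNT peaks nearest to a start had varied scores and lay on both sides of it. Wnt6 had one 1379 bp past its start, in an intron, with scores of 58 in replicate 2 and 148 in replicate 1. Wnt10a had one 2725 bp upstream (59 and 140), and Wnt8b one 3159 bp downstream (51 and 132). Wnt4, a ligand of kidney and gonad formation, had one 3018 bp upstream with scores of 37 and 130. Weak ones included Wnt7a at 3748 bp, with 12 and 75, and Wnt8a at 3362 bp, with 18 and 105. Of the 6 WNT genes with none within 5 kb, Wnt9b had its nearest at 9110 bp, and Wnt3, Wnt7b, Wnt16 and Wnt2 at 10179, 10378, 37523 and 40174 bp. Wnt5a, a ligand of β-catenin-independent signalling, was the most isolated, with its nearest replicate 2 peak 418979 bp upstream (score 11).

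**Figure D3:**
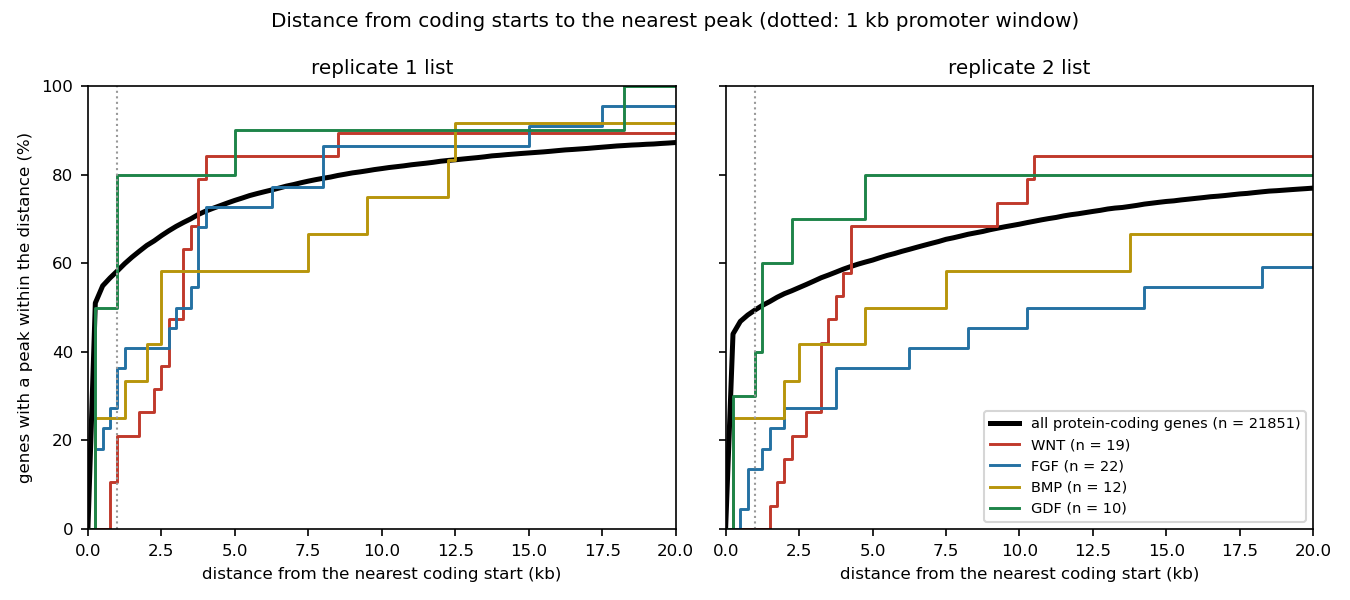
Cumulative percentage of genes (y axis) with a peak within a given distance in kb of the nearest coding start (x axis), for each list. In replicate 2 the WNT line starts at 0 at 1 kb and reaches 13 of 19 genes at 5 kb, while 49.4% of all genes have a peak within 1 kb and 60.7% within 5 kb.

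The members' counts therefore depend on the limit of 1000 bp set for a promoter peak. In the replicate 2 list 12 members had their nearest peak between 1000 and 2500 bp: Bmp2, Bmp6, Fgf1, Fgf2, Fgf18, Gdf1, Gdf6, Gdf15, Wnt2b, Wnt5b, Wnt6 and Wnt11. With a window of 2500 bp, 22 of 63 members (34.9%) would have a replicate 2 promoter peak, 4 of them WNT genes, against 54.5% of all genes. Just outside the limit were Gdf6, with a peak 1101 bp upstream scoring 48, Fgf1 with 22 at 1159 bp, and Gdf15 with 60 at 1164 bp. The Gdf15 peak lies in an intron and scored 138 in replicate 1, above the 110 of its best promoter peak there.

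Peaks in the wider surroundings were fewer than around other genes for the FGF and BMP families, while GDF genes had more in replicate 2 and fewer in replicate 1. Counting each gene and 50 kb to either side, the median was 21 peaks per member in replicate 1 and 7 in replicate 2, against 28 and 9 over all protein-coding genes. WNT genes had medians of 25 and 9, GDF genes 22 and 12.5, FGF genes 18 and 4, and BMP genes 17.5 and 4.5. Wnt5b (78 and 21 peaks) and Fgf11 (65 and 26) had the most. The span counted grows with gene length. Wnt5b is 111.8 kb long, and 56 and 11 of its peaks lay within the gene. Median gene lengths were 22.2 kb for WNT, 20.4 kb for FGF, 30.3 kb for BMP and 5.42 kb for GDF genes, against 17.4 kb over all genes. Bmp15 and Fgf5 had none in replicate 1, against 6.07% of all genes. In replicate 2, where 13.7% of all genes had none, 11 members had none: Bmp15, Fgf5, Bmp3, Bmp4, Fgf3, Fgf9, Fgf13, Fgf14, Gdf2, Gdf10 and Wnt5a. The BMP4 gene, whose product is the ligand of stress erythropoiesis, was thus among those with no replicate 2 peak near it, and it had 4 peaks in replicate 1.

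**Figure D4:**
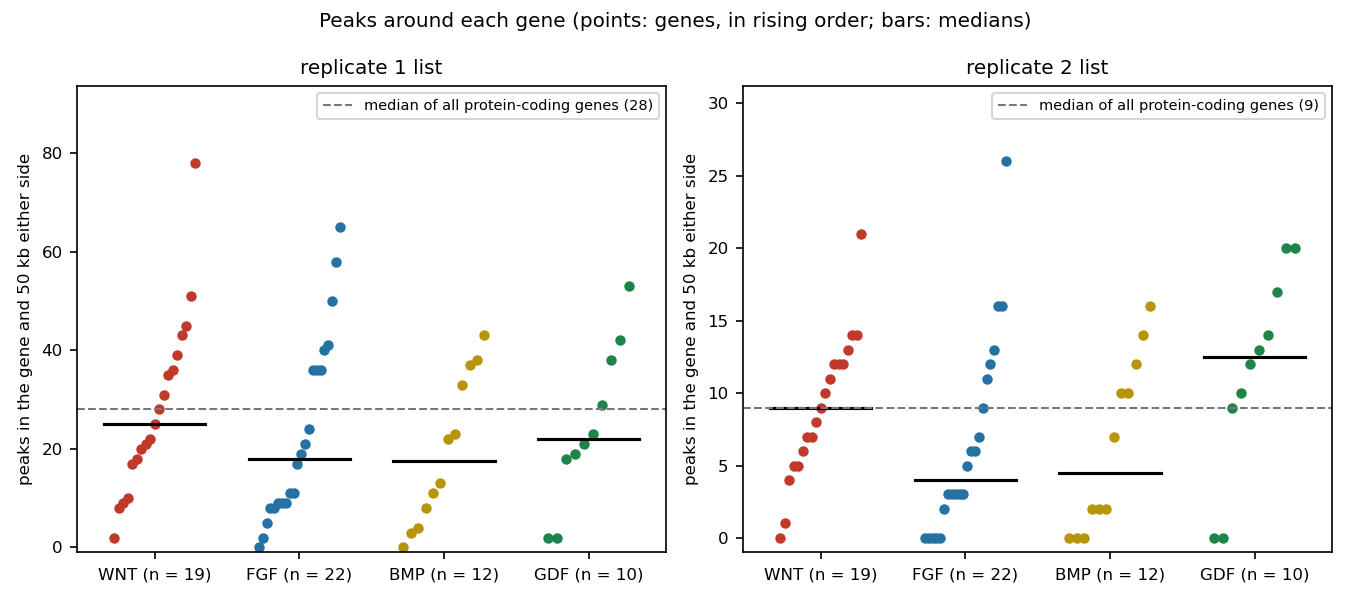
Number of peaks in each member and 50 kb to either side (y axis), by family and list; points are genes, black bars family medians and the dashed line the median of all protein-coding genes (28 and 9). GDF genes have a median above the line in replicate 2 (12.5), and the FGF and BMP medians lie below it in both lists, although single genes of these families lie above it.

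Many of these nearby peaks belong at least as much to other genes. The members' surroundings held 1402 different peaks in replicate 1 and 470 in replicate 2. The nearest coding start was a member's for 41.9% and 43.2% of them, and 281 and 125 of them were promoter peaks of some coding gene. Peaks at a member's own promoter made up 3.42% and 4.47%. Promoter peaks of coding genes were not confined to these surroundings. Among all peaks with a searched sequence they numbered 34546 of 281048 in replicate 1 and 18849 of 88879 in replicate 2. Of the 470 replicate 2 peaks, 95.1% (Wilson 95% interval 92.8 to 96.7%, counting error only) were overlapped by a replicate 1 peak, and over the whole replicate 2 list the share was 94.6%.

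Of the 10 strongest replicate 2 peaks within 50 kb that were no member's promoter peak, only the Fgf2 peak had a member as its nearest coding start. The strongest, with a score of 105, was the promoter of Mgea5, which encodes the enzyme that removes O-GlcNAc, 40736 bp from Fgf8. Next came the Fgf2 peak with 100, and then the promoters of Uqcrq (99, 2308 bp upstream of the protein-coding start of Gdf9) and Polrmt (98, 8405 bp upstream of Fgf22). The Uqcrq peak, chr11:53430916-53431065, also covers the annotated 5′ end of the Gdf9 gene at 53431023, so it cannot be given to Uqcrq alone. The others were a peak scoring 96 nearest to Mgea5, one in Lrrc25 (96, near Gdf15), the promoters of Tmem256 (95, near Fgf11) and Lsm4 (95, near Gdf15), one in Palm (94, near Fgf22) and one in Mamstr (93, near Fgf21).

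Strong sites that did lie nearest to a member were led by Fgf2, which encodes basic FGF. Its peak 15975 bp upstream scored 100 in replicate 2 and 148 in replicate 1, while the Fgf2 promoter itself had 5 weak replicate 1 peaks, with scores from 38 to 81, and none in replicate 2. Bmp2k had an intronic peak 24762 bp past its start (92 and 149) and one 45818 bp upstream (82 and 149). Fgf6, a muscle ligand, had one 18995 bp upstream with 79 and 144. Wnt11 had one 19560 bp upstream with 74 and 143. Wnt10b had one in an exon 4118 bp past the nearest of its 5 starts with 71 and 147. In each of these loci other than Bmp2k no start had a replicate 2 promoter peak.

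The underlying DNA of 5 sites away from promoters is given because they hold a GATA or a CTCF match, on the mm10 plus strand with the match in capitals. GATA factors bind regulatory DNA of red cell genes and CTCF organises chromatin loops. The GATA search used AGATAA on both strands, also with T for its first letter, G for its last, or both, and CTCF was searched by its core consensus.
Wnt6, chr1:74773196-74773345: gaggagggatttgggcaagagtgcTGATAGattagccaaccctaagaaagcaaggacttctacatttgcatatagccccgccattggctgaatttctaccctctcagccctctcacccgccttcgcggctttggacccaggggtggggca
Wnt3a, chr11:59261196-59261345: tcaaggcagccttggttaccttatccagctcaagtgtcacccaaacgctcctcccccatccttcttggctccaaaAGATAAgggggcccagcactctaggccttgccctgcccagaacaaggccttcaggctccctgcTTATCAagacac
Bmp8b, chr4:123071796-123071945: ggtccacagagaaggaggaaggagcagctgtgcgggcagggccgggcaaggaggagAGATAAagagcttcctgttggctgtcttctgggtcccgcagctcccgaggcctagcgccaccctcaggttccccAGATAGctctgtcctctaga
Bmp10, chr6:87424176-87424325: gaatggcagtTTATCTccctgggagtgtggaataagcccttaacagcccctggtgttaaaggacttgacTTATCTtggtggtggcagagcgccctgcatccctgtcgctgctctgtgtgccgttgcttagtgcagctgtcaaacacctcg
Wnt5b, chr6:119444216-119444365: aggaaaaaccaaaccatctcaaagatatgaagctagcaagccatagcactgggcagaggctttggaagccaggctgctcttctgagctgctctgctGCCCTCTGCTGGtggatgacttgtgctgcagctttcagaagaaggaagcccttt
The Wnt6 site lies in an intron 1379 bp past the start, and the Wnt3a site in an intron 29481 bp past the start (scores 66 and 142) with a pair of GATA matches. The Bmp8b site lies 33294 bp upstream of its gene (64 and 143) and the Bmp10 site 4743 bp upstream (54 and 135), each also with a pair. The Wnt5b site, in an intron 5095 bp past the nearest of the gene's 4 starts (57 and 129), carries the CTCF match.

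Such matches were not more frequent near these genes than elsewhere by more than a few percentage points. Of 182 replicate 2 peaks away from promoters and nearest to a member, 57 held a GATA match (31.3%, against 38.3% of all 70030 peaks away from promoters). A CTCF match was present in 14 (7.69%, against 5.77%). TCF/LEF, the nuclear end of the WNT pathway, was searched as CTTTGATC, CTTTGAAC and CTTTGATG on both strands and found in 3 (1.65%, against 1.55%). Of the 21 replicate 2 promoter peaks of members, 8 held the KLF letters CCNCNCCC (38.1%, against 42.5% of all promoter peaks) and 4 a GATA match (19.0%, against 15.2%). A match is a run of letters and not a measured binding site.

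**Figure D5:**
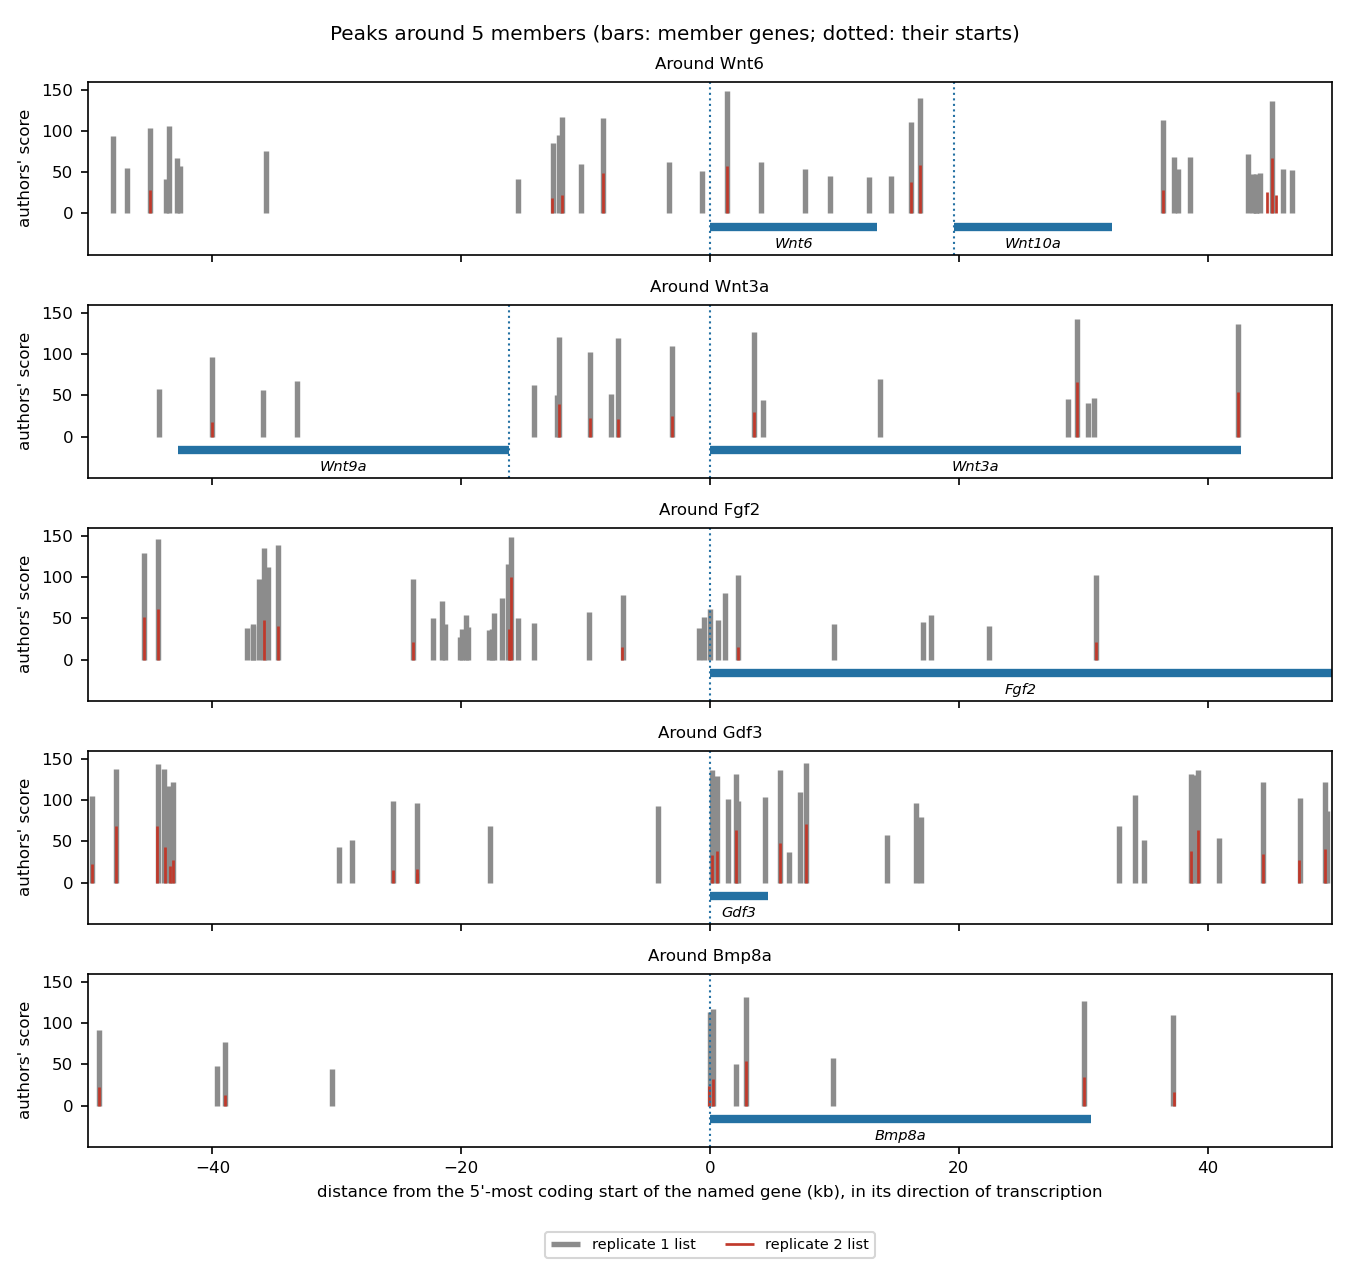
Peaks around the 5′-most coding starts of Wnt6, Wnt3a, Fgf2, Gdf3 and Bmp8a: position in kb in the direction of transcription (x axis) and the authors' score (y axis), replicate 1 in wide grey lines and replicate 2 in narrow red lines, with member genes as blue bars. Gdf3 and Bmp8a have red lines at the start, whereas Wnt6, Wnt3a and Fgf2 have none within 1 kb of it, the nearest red line to Wnt6 being at 1379 bp and to Wnt3a at 3059 bp.

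Several members are neighbours and share the same accessible sites, so their counts are not independent. Wnt1 and Wnt10b, 11707 bp apart, shared 37 replicate 1 and 9 replicate 2 peaks within 50 kb. Wnt6 and Wnt10a, 6194 bp apart, shared 31 and 11, and Wnt3a and Wnt9a 18 and 7. Wnt3 and Wnt9b shared 11 and 2. In the FGF clusters, Fgf4 and Fgf15 shared 19 and 3, Fgf6 and Fgf23 shared 10 and 3, and Fgf3 and Fgf4 shared 5 and 0. Gdf2 and Gdf10, which are adjacent, shared 2 and 0.

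The genes that receive and relay these signals had promoter peaks more often than the members, but the receptor genes stayed below the 49.4% of all genes in replicate 2. Most of these genes are of the high-CpG class, in which 81.2% and 75.9% of all genes had one. For the WNT pathway, 6 of 15 receptors and co-receptors had a replicate 2 promoter peak and 9 had one in replicate 1, and all 15 are of the high class. They were led by Fzd7 (105), Fzd5 (61), Fzd4 (60) and Lrp6 (31), by replicate 2 score. Those with none in either list were Ror1, Fzd1, Fzd3, Fzd6, Fzd8 and Fzd10. Secretion, relay and nuclear factors had 12 of 18 in replicate 2 and 13 in replicate 1 (66.7% and 72.2%, with 17 in the high class), led by the kinase genes Gsk3b (115) and Gsk3a (92), then Pygo2 (88) and Axin1 (87). Lef1, Wls, Tcf7l1, Tcf7l2 and Axin2 had none in either list; Wls carries WNT proteins to the cell surface. Of 13 antagonists, 4 had one in replicate 2 (Znrf3 at 64, Rnf43 at 50, Wif1 at 48 and Sfrp5 at 22) and 5 in replicate 1, or 30.8% and 38.5%, and 7 of the 13 are of the high class. Frzb, Sfrp1, Sfrp2, Sfrp4, Dkk1, Dkk2, Dkk3 and Dkk4 had none.

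For FGF, 3 of 7 receptor genes had a promoter peak in both lists (42.9%, with 6 in the high class), Fgfrl1 (70), Fgfr2 (66) and Fgfr3 (34), whereas Fgfr1, Fgfr4 and the co-receptor genes Kl and Klb had none. Relay and feedback genes stood high, with 10 of 12 in replicate 2 and 11 in replicate 1 (83.3% and 91.7%), and 11 of the 12 are of the high class. The feedback phosphatase gene Dusp6 led with 105, followed by Grb2 (91), Spred2 (79) and Frs2 (73), and only Spry2 had none in either list.

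On the BMP side, the receptor list also held activin and TGF-β receptor genes. Of its 13 genes, 5 had a replicate 2 promoter peak and 8 a replicate 1 peak (38.5% and 61.5%, with 11 in the high class). By replicate 2 score the TGF-β and activin receptor genes Tgfbr1 (71) and Acvr1b (41) led, then Bmpr2 (38) and Acvr2b (36). Acvrl1, Bmpr1a and Eng had one in replicate 1 alone, with scores of 119, 96 and 70. Acvr1, Acvr1c, Bmpr1b, Tgfbr2 and Tgfbr3 had none in either list. Of 8 SMAD genes, 6 had one in both lists, led by Smad6 (83), Smad4 (71), Smad5 (63) and Smad3 (61), and Smad1 and Smad9 had none. All 8 are of the high class, and 6 of 8 stands beside the 75.9% of that class in replicate 2. Of 11 BMP antagonists, Twsg1 alone had one in replicate 2 (28), and Fstl3 joined it in replicate 1. Grem1, Nbl1, Dand5, Bmper, Nog, Sost, Fst, Chrd and Fstl1 had none. The shares were 18.2% in replicate 1 and 9.09% in replicate 2, and of the 7 antagonist genes in the high class 1 had a promoter peak.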

How the data were processed

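DNase-seq of MEL cells was analysed from called regions. Per the deposited notes, replicate 1 regions were called on merged alignments and replicate 2 regions on 1 library. Per the labels the build is mm10; aligner and caller are not given in the sources used here. The authors deposited a score per peak, used within a list only, and a −log10 q-value per hotspot, of which only positions were used. Read depth is unknown.

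Exact repeats were dropped (67 and 7 lines). Peak centres were set against protein-coding starts of GENCODE M21 basic with Python 3.11.15, numpy 2.4.6, pandas 2.3.3, scipy 1.17.1, pysam 0.24.0 and matplotlib 3.10.9. Peaks within 50 kb were counted over the gene and both flanks. Code was tested on simulated data.

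The members, the 12 pathway and marker lists and the motifs were chosen with earlier results of these data known. Some genes of these lists are not reported here and were left out of their counts. By rule, all members were named, with up to 4 genes per list by replicate 2 score, genes with no promoter peak in either list, and the 10 strongest nearby peaks. Alternatives were other windows, higher-scoring or equal-length lists, hotspots, and ligands only. No test was possible with 1 list per biological replicate.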

Additional observations from a re-analysis of the deposited data

How the results depend on the processing

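Of 34 alternative values over 15 settings, 19 stayed within 1.5 times the reported count or median, or within the interval of the reported share. Among those that stayed, the replicate 2 values with lists of equal length could not differ, because that list was the shorter and was not cut. Members with a replicate 1 promoter peak fell from 23 to 13 with a 500 bp window (20.6%, against 54.9% of all genes). They fell to 11 with lists of equal length. Those with a replicate 2 promoter peak numbered 22 with a 2500 bp window (34.9%, against 54.5% of all genes). In the higher-scoring 50% of the list they numbered 5 (7.94%, against 44.4%). Those in both lists numbered 22 with a 2500 bp window. With 1 replicate left out, the count is simply that of the remaining list, 10 for replicate 2 and 23 for replicate 1, which restates the main counts. The median number of nearby peaks in replicate 1 was 7 within 10 kb, 44 within 100 kb, 11 in the higher-scoring 50% and 7 with equal lengths. In replicate 2 it was 2 within 10 kb, 16 within 100 kb and 3 in the higher-scoring 50%. The share of nearby replicate 2 peaks overlapped in replicate 1 was 90.2% with at least 75 bp of overlap and 76.6% with equal-length lists. Under every promoter window and list length tried, the members' share stayed below that of all genes. With equal lengths it was 17.5% against 50.7% in replicate 1. The replicate 2 list is unchanged by that setting, so its 15.9% against 49.4% restates the main result. The unknown depth limits all calls of absence.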

Other observations

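Other ligand genes of development, outside the symbol rule, also had promoter peaks less often than the 58.3% and 49.4% of all genes in replicates 1 and 2. Of 13 further TGF-β family ligands, 4 had one in replicate 1 (30.8%) and 2 in replicate 2 (15.4%), Tgfb1 (138 and 40) and Tgfb3 (120 and 33). Mstn, Inhba, Inhbb, Inhbc, Inhbe, Lefty1, Lefty2, Tgfb2 and Nodal had none in either list. In this list 6 genes are of the low-CpG class, in which 29.9% and 17.2% of all genes had a promoter peak, and 3 are of the high class. Of 16 Hedgehog, Notch and ephrin ligands, 6 had one in replicate 1 and 4 in replicate 2, and 12 of the 16 are of the high class (81.2% and 75.9% of all genes). Those 4 were all ephrin genes, which encode membrane-bound guidance ligands: Efnb1 (144 and 88), Efna1 (136 and 53), Efna4 (135 and 48) and Efna3 (118 and 32). The 3 Hedgehog genes Shh, Ihh and Dhh had none, nor had Jag1, Jag2, Dll1, Dll3, Efnb2, Efnb3 and Efna5.

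The FGF receptor gene Fgfr2, counted above among those with a promoter peak, had 450 replicate 1 and 155 replicate 2 peaks within 50 kb. Over all protein-coding genes the median was 28 and 9, and the highest count 1389 and 382. With peaks this dense, a peak in its promoter window says less than one at a gene with few peaks nearby.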
